A study of Mus musculus with 9 samples.

Results

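Choline kinases, cytidylyl transferases, phospholipid transferases, lipid phosphate phosphatases and lipins build the phosphatidylcholine and phosphatidylethanolamine of liver membranes, bile and lipoproteins. The genes described here are 10 members of this group, Chka, Chkb, Pcyt1a, Pcyt2, Cept1, Pemt, Plpp1, Plpp3, Lpin1 and Lpin2, of 27945 genes with a count. They were selected by gene name, and the names were proposed with the outcome of the 3 group comparisons known. Fold changes and adjusted p-values of the 10 genes therefore describe how large a difference was beside the spread between libraries, and they support no statement about the group as a set.

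Polyadenylated RNA was sequenced from mouse liver in 9 libraries, 3 labelled treated, 3 labelled model and 3 labelled control. The series concerns liver damage caused by gefitinib, an inhibitor of the epidermal growth factor receptor kinase; the agent given to the treated mice, and any dose, time, sex, strain or age, are not given in the labels. Source and tissue are given as liver and the titles speak of liver cells, so whole tissue and isolated cells cannot be told apart from the labels. Nothing in the labels ties each library to an animal of its own; p-values here reflect only how far libraries of a group lie apart, which may be technical.

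The libraries held 56440871 to 60665156 estimated counts. Levels are given as CPM, counts relative to the library total, scaled between libraries with the trimmed mean of M-values (TMM), and comparisons between genes use FPKM, fragments relative to transcript length and library total. Hepatocyte markers summed to 83174 to 101415 CPM in treated, 105883 to 109063 CPM in model and 102986 to 116989 CPM in control libraries. A gene is called changed where the adjusted p of edgeR's quasi-likelihood test, over 18113 genes, was under 0.05. The 3 comparisons share their groups and are therefore not independent of each other.

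As background, choline kinase phosphorylates choline, a cytidylyl transferase turns phosphocholine or phosphoethanolamine into the CDP form, and a phosphotransferase joins that form to diacylglycerol. The diacylglycerol comes from phosphatidate, which the lipins dephosphorylate at the endoplasmic reticulum. Hepatocytes have a further route, in which PEMT methylates phosphatidylethanolamine to phosphatidylcholine, while the membrane-spanning phosphatases PLPP1 and PLPP3 remove phosphate from phosphatidate, lysophosphatidate and sphingosine 1-phosphate.

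Chka, choline kinase alpha, and Plpp1 were lower in model than in control livers, and Chka and Lpin2 were higher in treated than in model livers. In treated livers Chka overlapped the control libraries, Plpp1 was lower than in control, and Lpin2 was higher than in both other groups. Pcyt1a, Pcyt2, Cept1 and Lpin1 were not called in any comparison. All 10 genes passed the filter on low counts. In model against control, 2 of the 10 were called, both lower, where 1.12% of all genes tested were called (0.519% higher, 0.596% lower). In treated against model, 2 were called, both higher, where 9.65% of all genes were called (5.21% higher, 4.44% lower). In treated against control, 5 were called, 1 higher and 4 lower, where 17.8% of all genes were called (9.36% higher, 8.47% lower). On library totals without TMM that split was 2 higher and 2 lower, and without treated replicate 2 or treated replicate 3 it was 0 higher and 2 lower, while without control replicate 3 it was 1 higher and 2 lower. The median log2 fold change of the 10 was -0.31, -0.05 and -0.26 in these comparisons, beside -0.0009, 0.0052 and -0.009 over all genes tested. Because the comparisons guided the choice of names, nothing is read from these counts or medians.

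**Figure D1:**
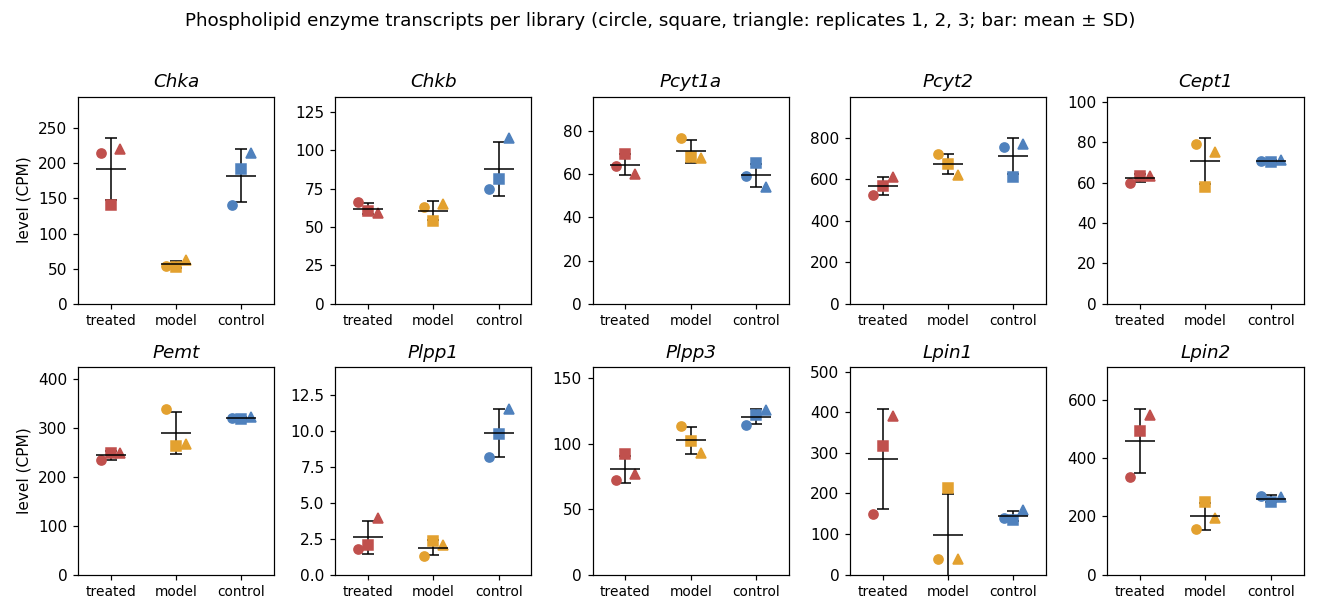
Level of each gene in CPM (vertical axis, from 0) in the 3 treated, 3 model and 3 control libraries. Circles, squares and triangles are replicates 1, 2 and 3, and bars are the mean ± SD, cut at 0 for Lpin1 in model. Chka lies between 51.9 and 61.8 CPM in model and above 140 CPM in every other library, and Plpp1 lies above 8 CPM in control libraries only.

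Per length, Pcyt2 and Pemt stood far above the others, at means over 9 libraries of 131 and 118 FPKM. Plpp3 followed at 27.9, Lpin2 at 22.6, Chkb at 20.1, Cept1 at 19.2, Lpin1 at 16.0, Chka at 10.7, Pcyt1a at 7.74 and Plpp1 at 2.32 FPKM. These values are FPKM deposited for genes, and the place of Chka depends on that choice. Summed over its transcripts, Chka had 66.9 to 89.5 FPKM in treated, 18.3 to 23.6 in model and 49.1 to 75.1 in control libraries. In control libraries the ranges of neighbours overlapped for Pcyt2 (112 to 149 FPKM) and Pemt (121 to 131 FPKM), for Cept1 (18.1 to 19.4 FPKM) and Lpin2 (16.3 to 18.8 FPKM), and for Chka (10.03 to 14.9 FPKM) and Lpin1 (10.9 to 13.3 FPKM). The most and least variable genes over all libraries were Lpin1, whose highest FPKM was 11.7 times its lowest, and Pemt, at 1.21 times. Plpp1 varied 9.40 times, Chka 4.86 times and Lpin2 3.97 times.

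Chka lies on chromosome 19 at 3851773 to 3894369 of GRCm38, on the plus strand. The 250 bases before a RefSeq start of it, chr19:3851523-3851772 on GRCm38.p6, are shown because this gene was called in both comparisons that involve model livers. Capitals mark the CCAAT box (CCAAT) and the GC box (GGGCGG), each searched on both strands, so that the reverse complement is marked where the match is on the minus strand.

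Chka promoter: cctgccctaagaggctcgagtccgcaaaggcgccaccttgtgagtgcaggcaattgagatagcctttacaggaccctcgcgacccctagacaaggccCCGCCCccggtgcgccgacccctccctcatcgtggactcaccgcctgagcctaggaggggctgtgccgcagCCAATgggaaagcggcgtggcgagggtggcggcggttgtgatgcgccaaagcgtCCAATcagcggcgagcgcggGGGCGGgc

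The window is 68.0% G and C and holds 2 CCAAT boxes and 2 GC boxes. Of 32851 promoter windows of the same length, 33.85% held a CCAAT box and 32.74% a GC box. The E-box CACGTG, the cAMP response element TGACGTCA and the AP-1 site TGANTCA, searched in the same way, are not in this window, and 6.02%, 1.55% and 6.75% of all windows held them. These matches describe letters only.

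Chka had 214, 141 and 221 CPM in treated livers, against 53.9, 51.9 and 61.8 CPM in model livers. In control livers it had 141, 192 and 215 CPM. All 3 model libraries were lower than any other library, and treated and control libraries overlapped. The mean was 55.9 ± 5.18 CPM in model and 183 ± 38.1 CPM in control livers (SD, n = 3 each), a level 3.27-fold lower in model (log2 fold change -1.71, SE 0.20, edgeR adjusted p = 0.0068). Treated livers averaged 192 ± 44.3 CPM and were 3.44-fold above model (log2 fold change 1.78, SE 0.20, edgeR adjusted p = 0.000569). The treated to control difference was 0.07 on the log2 scale (edgeR adjusted p = 0.847).

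Chka counts came largely from transcripts that are not annotated as protein-coding. By mean transcript FPKM the leading one was a retained-intron form, which held 19.0% to 38.3%. Protein-coding transcripts held 22.1%, 35.1% and 11.0% in treated, 36.7%, 38.4% and 38.3% in model and 22.4%, 20.4% and 22.7% in control libraries. The share was higher in every model library than in any treated or control library, but by estimated counts treated replicate 2, at 39.9%, lay inside the model range of 35.1% to 40.1%. Summed, the coding transcripts had 18.3, 23.5 and 9.80 FPKM in treated, 6.71, 7.41 and 9.04 FPKM in model and 11.0, 13.0 and 17.0 FPKM in control libraries. Model libraries were thus again the lowest by coding transcripts, with treated replicate 3 close to them. With 3 libraries against 3 an exact two-sided permutation test cannot give a p below 0.1, so no share was tested.

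The coding transcripts of Chka that differ in a cassette exon make proteins with and without 18 codons. The exon, chr19:3875735-3875788 on the plus strand of GRCm38 and 54 bases long, is shown because its presence tells the main coding forms apart. Transcripts annotated for nonsense-mediated decay span it too.

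Chka cassette exon: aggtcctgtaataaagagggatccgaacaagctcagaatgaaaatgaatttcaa

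Of the FPKM of transcripts that span it, 74.0%, 99.1% and 68.3% included the exon in treated, 100%, 98.1% and 64.8% in model and 71.5%, 63.3% and 74.5% in control libraries. The 3 groups overlapped, and these shares include the decay forms. The protein-coding form with the exon, ENSMUST00000025760, had 12.3, 23.2 and 0 FPKM in treated, 6.71, 7.27 and 5.35 FPKM in model and 6.26, 5.63 and 9.71 FPKM in control libraries. The form without it, ENSMUST00000072055, had 5.84, 0 and 9.37 FPKM in treated, 0, 0 and 3.46 FPKM in model and 4.27, 7.24 and 6.90 FPKM in control libraries. The form with the exon was thus the lower of the pair in treated replicate 3, where it is listed at 0, and in control replicate 2.

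The genes whose standardised log2 CPM profile over the 9 libraries was most like that of Chka included Ube2b and Dtx4. Their root mean square differences from Chka were 0.121 and 0.166 SD. Ube2b, a ubiquitin-conjugating enzyme, had 89.9, 87.3 and 89.5 CPM in treated, 76.8, 77.7 and 79.2 CPM in model and 86.5, 88.6 and 89.3 CPM in control libraries. Dtx4 had 26.2, 20.4 and 29.1 CPM in treated, 14.6, 12.7 and 13.7 CPM in model and 22.3, 26.8 and 29.7 CPM in control libraries. For both genes every model library was lower than any other library, but the range of Ube2b was narrow: standardised profiles compare shape and not size.

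Chkb, choline kinase beta, lies on chromosome 15 at 89426360 to 89429899 on the minus strand. It had 66.0, 60.6 and 59.3 CPM in treated, 62.9, 54.0 and 65.2 CPM in model and 74.7, 81.4 and 108 CPM in control libraries. Control libraries were the highest, and treated and model libraries overlapped. Chkb was 1.42-fold lower in treated livers, at 62.0 ± 3.53 CPM, than in control livers, at 88.0 ± 17.7 CPM (log2 fold change -0.51, SE 0.14, edgeR adjusted p = 0.0278). The call was lost without control replicate 3 (adjusted p = 0.0859), treated replicate 2 (0.0778) or treated replicate 3 (0.0853), and on library totals without TMM (log2 fold change -0.30, adjusted p = 0.170). In model against control the log2 fold change was -0.54 (edgeR adjusted p = 0.0961).

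The Chkb locus limits what its counts mean. The gene Gm44502 overlaps the span of Chkb, introns included, by 3337 bases on the same strand, and it had 2.67 to 15.6 CPM in treated, 6.61 to 15.8 CPM in model and 12.4 to 16.4 CPM in control libraries. The sum of both was 72.5 ± 3.37 CPM in treated, 71.0 ± 2.35 CPM in model and 102 ± 15.9 CPM in control livers (SD, n = 3 each). By mean transcript FPKM the leading Chkb transcript was one annotated for nonsense-mediated decay, with 22.1% to 51.9%, though it was behind 2 others in treated replicate 1. By estimated counts the means were close, at 28.7% for a protein-coding transcript, 27.7% for a retained-intron form and 25.8% for the decay form. The retained-intron form led in treated replicate 1 (43.2%), model replicate 2 (35.8%) and control replicate 3 (37.1%). The decay form led in treated replicate 3 (32.9%) and control replicate 2 (30.9%).

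Within the kinase pair, Chka made up 43.7% ± 5.89 of the summed FPKM in treated, 19.0% ± 0.941 in model and 34.5% ± 2.64 in control livers (SD, n = 3 each). Model libraries had the lowest shares, without overlap, while treated replicate 2 (37.2%) lay just below control replicate 2 (37.5%). With each gene taken as the sum of its transcripts the means were 64.9% in treated, 35.0% in model and 53.1% in control livers, and no groups overlapped.

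Pcyt1a, the CTP:phosphocholine cytidylyl transferase that is usually limiting for this route, lies on chromosome 16 at 32430921 to 32475070. It had 64.0, 69.5 and 60.1 CPM in treated, 76.9, 68.0 and 67.4 CPM in model and 59.4, 65.1 and 54.1 CPM in control libraries. Model libraries lay above control libraries without overlap, but the edgeR adjusted p was 0.321 (log2 fold change 0.25). The adjusted p was 0.492 in treated against model and 0.499 in treated against control, though on library totals without TMM the treated to control difference was called (log2 fold change 0.33, adjusted p = 0.0471).

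Pcyt2, the matching enzyme for phosphoethanolamine, lies on chromosome 11 at 120610087 to 120617936 and was the most abundant of the 10 per length. It had 524, 565 and 609 CPM in treated, 719, 674 and 622 CPM in model and 754, 610 and 768 CPM in control libraries. In CPM treated libraries were lower than model and control libraries without overlap, though treated replicate 3 was less than 1 CPM below control replicate 2. By FPKM the groups overlapped, at 121 to 132 in treated, 124 to 137 in model and 112 to 149 in control libraries. The log2 fold change was -0.25 in treated against model (edgeR adjusted p = 0.253) and -0.33 in treated against control (0.0917). On library totals without TMM these were -0.08 (edgeR adjusted p = 0.740) and -0.13 (0.530). Without control replicate 2 the treated to control difference was called (log2 fold change -0.43, adjusted p = 0.0480).

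Cept1, which joins CDP-choline or CDP-ethanolamine to diacylglycerol, lies on chromosome 3 at 106502260 to 106547802. It had 59.8, 63.3 and 63.2 CPM in treated, 79.3, 57.9 and 75.3 CPM in model and 70.6, 70.5 and 71.4 CPM in control libraries. Treated libraries lay below control libraries without overlap, and the model libraries spanned both. The log2 fold change was -0.19 in treated against control (SE 0.11, edgeR adjusted p = 0.295), and 0.02 on library totals without TMM.

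Pemt lies on chromosome 11 at 59970614 to 60046485 on the minus strand. It had 234, 249 and 248 CPM in treated, 339, 263 and 266 CPM in model and 321, 318 and 322 CPM in control libraries. Treated libraries were lower than all others, and 1 model library lay above the controls. Pemt was 1.31-fold lower in treated livers, at 244 ± 8.60 CPM, than in control livers, at 320 ± 2.13 CPM (SD, n = 3 each; edgeR adjusted p = 0.0381). Hepatocyte markers summed to 83174 to 101415 CPM in treated and 102986 to 116989 CPM in control libraries, with 4 of 11 tested called lower, none higher and a median log2 fold change of -0.22; their part in the Pemt result was not tested. Leaving out any 1 treated or control library ended this call (adjusted p between 0.0727 and 0.112), as did library totals without TMM (log2 fold change -0.19, adjusted p = 0.264). In model against control the log2 fold change was -0.15 (edgeR adjusted p = 0.650).

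**Figure D2:**
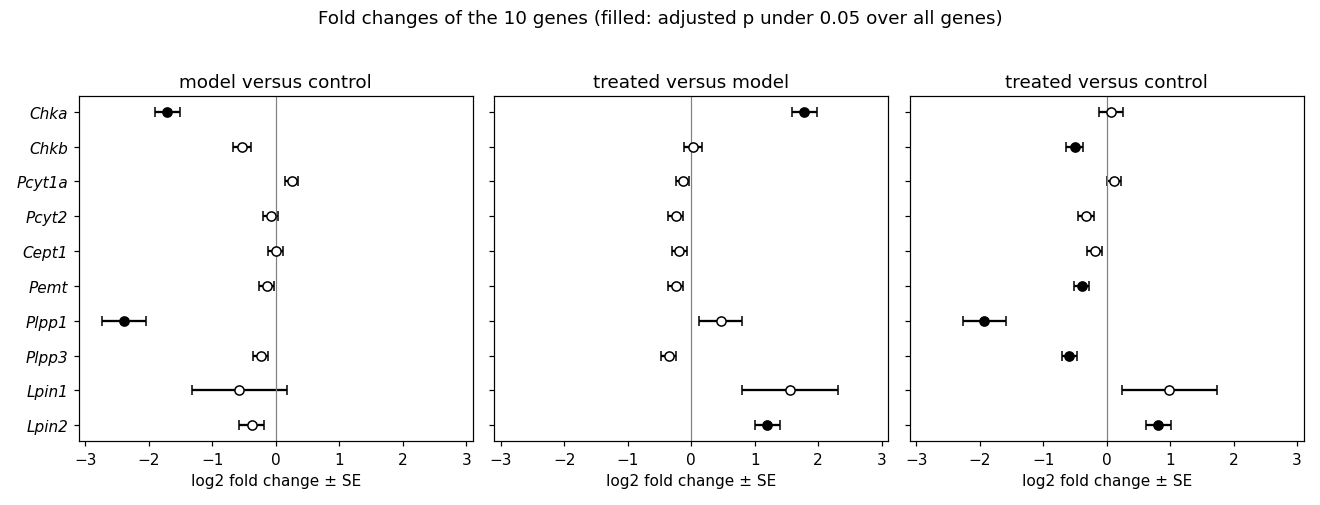
Log2 fold change (horizontal axis) of the 10 genes in model against control, treated against model and treated against control. Bars are the SE derived from the edgeR F statistic. Filled points had an adjusted p under 0.05 over all genes: Chka and Plpp1 in the left panel, Chka and Lpin2 in the middle panel, and Chkb, Pemt, Plpp1, Plpp3 and Lpin2 in the right panel.

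Plpp1, lipid phosphate phosphatase 1, lies on chromosome 13 at 112800792 to 112867894 on the plus strand. It had 1.79, 2.06 and 3.90 CPM in treated, 1.26, 2.33 and 2.03 CPM in model and 8.19, 9.77 and 11.5 CPM in control libraries. Treated and model libraries overlapped, and every one of them was lower than any control library. Model livers averaged 1.87 ± 0.552 CPM and control livers 9.82 ± 1.66 CPM (SD, n = 3 each), 5.23-fold lower in model (log2 fold change -2.39, SE 0.34, edgeR adjusted p = 0.0112). Treated livers, at 2.58 ± 1.15 CPM, were 3.80-fold below control (log2 fold change -1.93, SE 0.34, edgeR adjusted p = 0.00307). Treated against model gave 0.46 (edgeR adjusted p = 0.451). The values rest on 122, 135 and 248 estimated counts in treated, 70, 140 and 116 in model and 458, 508 and 617 in control libraries.

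Markers of endothelial cells were lower, as Plpp1 was, in model and treated livers than in control livers. The 16 listed genes, among them Pecam1, Cdh5 and Stab2, summed to 120 to 181 CPM in treated, 231 to 243 CPM in model and 522 to 611 CPM in control libraries. Of the 16, 10 were lower in model than in control, 15 were lower in treated than in control and 7 were lower in treated than in model, with none higher. In treated against model Plpp1 had a log2 fold change of 0.46 (SE 0.33), which was not called. The part of the endothelial markers in the Plpp1 result was not tested. In bulk samples fewer cells of a type and less RNA per cell cannot be told apart. By the measure used for Chka, the genes most like Plpp1 were Lamb2, Ehd3 and Zeb1, at 0.176, 0.233 and 0.251 SD. Ehd3, an endocytic recycling protein, had 15.7, 23.6 and 30.7 CPM in treated, 19.1, 20.3 and 17.0 CPM in model and 53.5, 53.0 and 58.6 CPM in control libraries. Plpp1 also shares 477 bases of span with Mtrex on the opposite strand, which had 12.5 to 17.3 CPM in all libraries; the strand setting of the counting is not given in the sources used here.

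Plpp1 has a pair of coding exons that replace each other in its 2 annotated transcripts. They are shown in full because the share of each varied widely between libraries. The upstream exon is chr13:112834859-112835013, 155 bases, and the downstream exon is chr13:112851403-112851554, 152 bases, both on the plus strand of GRCm38.

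Plpp1 upstream exon: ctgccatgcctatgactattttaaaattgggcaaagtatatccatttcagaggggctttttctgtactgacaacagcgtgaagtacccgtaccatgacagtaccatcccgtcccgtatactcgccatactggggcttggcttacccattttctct

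Plpp1 downstream exon: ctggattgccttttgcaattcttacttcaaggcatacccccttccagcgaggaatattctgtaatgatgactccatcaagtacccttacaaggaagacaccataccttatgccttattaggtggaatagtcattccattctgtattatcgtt

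Aligned, the exons share 87 identical bases, 56.1% of the longer. The transcript with the downstream exon made up 72.6%, 71.7% and 79.4% of Plpp1 FPKM in treated, 2.79%, 55.0% and 76.3% in model and 49.9%, 44.6% and 28.4% in control libraries. Treated libraries lay above control libraries without overlap (74.6% ± 4.21 and 41.0% ± 11.2, SD, n = 3 each), and the model libraries ran from below the controls to within the treated range. By estimated counts the exact 95% binomial intervals were 59.0% to 76.2%, 58.0% to 74.5% and 69.6% to 80.6% in treated, and 39.7% to 49.0%, 34.7% to 43.4% and 20.7% to 27.6% in control libraries. Model replicate 1 had 2 of 70 counts on the downstream form (0.348% to 9.94%), and model replicate 3 had 83 of 116 (62.4% to 79.5%). These intervals treat every estimated count as a read that tells the 2 forms apart. Reads from shared exons do not, so the intervals are too narrow even for counting error. They also leave out the error of dividing reads between transcripts.

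Plpp3, the more abundant lipid phosphate phosphatase here, lies on chromosome 4 at 105157347 to 105232764. It had 72.1, 92.0 and 76.4 CPM in treated, 113, 102 and 92.4 CPM in model and 114, 122 and 126 CPM in control libraries. Every treated library was below every model library, and every model library below every control library. The endothelial marker sums given with Plpp1 stood in the same order without overlap, and their part in the Plpp3 values was not tested. Plpp3 was 1.50-fold lower in treated livers, at 80.2 ± 10.5 CPM, than in control livers, at 121 ± 5.97 CPM (log2 fold change -0.59, SE 0.12, edgeR adjusted p = 0.00634). The log2 fold change was -0.35 in treated against model (edgeR adjusted p = 0.0885, and 0.0440 without treated replicate 2) and -0.23 in model against control (0.418). On library totals without TMM the treated to model difference was -0.19 (edgeR adjusted p = 0.334). Plpp1 made up 5.51% ± 2.52 of the summed FPKM of both genes in treated, 3.22% ± 1.12 in model and 12.7% ± 1.36 in control livers (SD, n = 3 each).

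**Figure D3:**
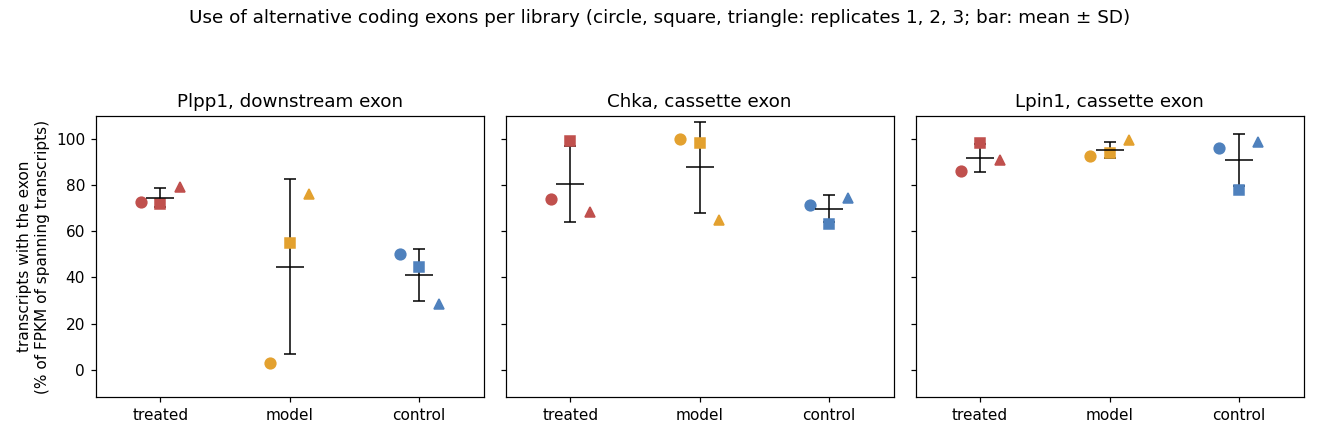
Share of FPKM of spanning transcripts that include an alternative coding exon (vertical axis, percent) for Plpp1, Chka and Lpin1 in treated, model and control libraries; symbols are replicates and bars the mean ± SD, which can pass 100. For Chka the share includes transcripts annotated for nonsense-mediated decay. The downstream exon of Plpp1 stands at 71.7% to 79.4% in treated and 28.4% to 49.9% in control libraries, with model libraries spread from 2.79% to 76.3%.

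Lpin1, a phosphatidate phosphatase that also acts as a transcriptional coactivator with PPARα and PGC-1α, lies on chromosome 12 at 16535669 to 16646966 on the minus strand. It had 150, 316 and 391 CPM in treated, 38.1, 214 and 38.3 CPM in model and 138, 136 and 159 CPM in control libraries. In model, replicate 2 was 5.63 times the lowest library, above every control library and inside the treated range. The log2 fold change was 1.56 in treated against model (SE 0.76, edgeR adjusted p = 0.276) and -0.57 in model against control (0.821). Without model replicate 2 the treated to model difference was 2.90 and was called (edgeR adjusted p = 0.00707), and the model to control difference was -1.91 and was not (0.117). The coefficient of variation of Lpin1 in model was 105%, beside a median of 9.25% over 5571 genes with a mean of at least 20 CPM, and 12 of these genes, Lpin1 included, had one as high.

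Skeletal muscle, which also expresses Lpin1, left a trace in some libraries. Its 12 listed markers summed to 186, 147 and 163 CPM in treated, 218, 1.03 and 0.997 CPM in model and 0.769 to 1.55 CPM in control libraries. In the same libraries Lpin1 had 150, 316 and 391 CPM in treated, 38.1, 214 and 38.3 CPM in model and 136 to 159 CPM in control. Adipocyte markers summed to 20.6 to 39.4 CPM in treated, 18.4 to 34.5 CPM in model and 23.6 to 43.9 CPM in control libraries, and of these Adipoq and Retn were at 0 in every treated and model library. Of 3 adipocyte markers tested, 1 was called higher in treated than in model and 2 higher in treated than in control, with none lower. Fabp4, a fatty acid-binding protein that endothelial cells and macrophages also express, had 13.8, 15.9 and 13.2 CPM in treated, 5.19, 4.66 and 4.497 CPM in model and 7.95, 5.71 and 7.43 CPM in control libraries. Of the muscle markers Ckm, Tnnc2, Pvalb, Mb and Tnni2 were at 0 in every control library. The part of these markers in the Lpin1 result was not tested.

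Nearly all Lpin1 came from coding transcripts, at 98.2% or more of transcript FPKM. A cassette exon of 33 codons, chr12:16571164-16571262 on the minus strand of GRCm38 and 99 bases long, tells its major forms apart and is shown for that reason.

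Lpin1 cassette exon: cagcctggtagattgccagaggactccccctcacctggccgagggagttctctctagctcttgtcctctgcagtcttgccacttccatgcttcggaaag

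It was included in 86.1%, 98.4% and 91.1% of spanning FPKM in treated, 92.5%, 94.0% and 99.3% in model and 96.3%, 78.0% and 98.7% in control libraries. The groups overlapped, and all 3 model libraries included the exon in over 92% of spanning FPKM.

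Lpin2, the other main liver lipin, lies on chromosome 17 at 71182560 to 71249817 on the plus strand. The window before a RefSeq start within that span, chr17:71183728-71183977 on GRCm38.p6, is shown as the counterpart to that of Chka, since both genes were higher in treated than in model livers; capitals mark the GC box.

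Lpin2 promoter: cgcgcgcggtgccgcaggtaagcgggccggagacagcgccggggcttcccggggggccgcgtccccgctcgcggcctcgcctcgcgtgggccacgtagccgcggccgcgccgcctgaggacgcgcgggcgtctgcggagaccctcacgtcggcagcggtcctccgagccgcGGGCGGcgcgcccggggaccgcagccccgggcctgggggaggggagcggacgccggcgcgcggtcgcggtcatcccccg

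It is 83.2% G and C, holds 1 GC box, and lacks the letters of the CCAAT box, E-box, cAMP response element and AP-1 site. Lpin2 had 336, 493 and 547 CPM in treated, 158, 249 and 194 CPM in model and 268, 248 and 265 CPM in control libraries. All treated libraries were above all others, and the ranges of model and control overlapped, with model replicate 2 and control replicate 2 nearly equal. Treated livers averaged 459 ± 110 CPM and model livers 200 ± 45.7 CPM (SD, n = 3 each), 2.29-fold higher in treated (log2 fold change 1.20, SE 0.20, edgeR adjusted p = 0.00414). Against control livers, at 261 ± 10.8 CPM, treated livers were 1.76-fold higher (log2 fold change 0.82, SE 0.19, edgeR adjusted p = 0.0152), a call lost without control replicate 2 (0.0583), treated replicate 2 (0.0504) or treated replicate 3 (0.0559). In model against control the log2 fold change was -0.38 (edgeR adjusted p = 0.421). The summed level of 14 macrophage markers was also highest in treated libraries. It was 884 to 1077 CPM in treated, 404 to 492 CPM in model and 268 to 428 CPM in control libraries. Gpnmb and Mpeg1 held much of the difference. Gpnmb had 182 to 316 CPM in treated, 5.95 to 10.1 CPM in model and 1.38 to 1.88 CPM in control libraries. Mpeg1 had 156 to 207, 47.1 to 55.4 and 27.2 to 31.0 CPM there. Clec4f and Timd4 overlapped between treated libraries and both other groups. Of the 14, 3 were called higher in treated than in model and 5 higher in treated than in control, with none lower; their part in the Lpin2 result was not tested. Lpin1 made up 42.1% ± 5.90 of the summed FPKM of both lipins in treated, 31.3% ± 17.6 in model and 40.5% ± 1.86 in control livers (SD, n = 3 each), with overlap between all groups.

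Of 121 other symbols listed for the same pathway, its supply of methyl groups and the partners and regulators of lipins, 114 were tested. The 8 partners and regulators are not enzymes of the pathway, and they are included in the pathway counts. Of these, Hnf4a was called in treated against model, and Srebf2, Ppara and Nr3c1 in treated against control. In model against control 1 rose, Plpp2, and 1 fell, 1.75% of those tested beside 1.12% of all genes, and the median log2 fold change was 0.03. Plpp2, another lipid phosphate phosphatase, was 1.82-fold higher at 34.2 CPM in model and 18.9 CPM in control livers (edgeR adjusted p = 0.0184). The Plpp2 call was lost when control replicate 2, control replicate 3, model replicate 2 or model replicate 3 was left out, with an adjusted p of at most 0.0692.

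In treated against model 4 of the 114 rose and 11 fell, 13.2% of those tested beside 9.65% of all genes, with a median of -0.11. On library totals without TMM, which shifts the median of all genes by 0.17, the split was 8 higher and 6 lower, and that of all genes was 1638 higher and 408 lower in place of 943 and 805. Abhd4, Pgs1 and Hnf4a were 1.51-, 1.51- and 1.30-fold higher. Etnppl, which breaks down phosphoethanolamine, was 2.11-fold lower, at 49.5 CPM in treated and 104 CPM in model livers (edgeR adjusted p = 0.0110). Gnmt, the glycine methyltransferase that uses S-adenosylmethionine, was 1.83-fold lower, at 467 CPM in treated and 855 CPM in model livers (edgeR adjusted p = 0.0127). Among 13 genes of methyl supply and choline oxidation, 4 fell, namely Mat1a, Gnmt, Bhmt2 and Sardh. Chpt1, the cholinephosphotransferase that acts beside Cept1, was 1.70-fold lower, at 82.2 CPM in treated and 140 CPM in model livers, and Lpgat1 was 1.40-fold lower, a call lost on library totals without TMM (log2 fold change -0.32, adjusted p = 0.0575). Without model replicate 1 the calls of Gnmt (adjusted p = 0.0541), Chpt1 (0.0829), Sardh (0.0702), Bhmt2 (0.0678) and Abhd4 (0.0768) were lost, and the pathway count was 1 higher and 2 lower. Without treated replicate 1 it was 2 higher and 3 lower, with Chpt1, Sardh and Bhmt2 among the calls lost. Chpt1 was also lost without model replicate 3 or treated replicate 3, and Abhd4 without model replicate 2. The calls of Pgs1 and Hnf4a were lost without any 1 treated or model library, and that of Hnf4a also without any control library. Without model replicate 3 the pathway count was 2 higher and 6 lower, and without treated replicate 3 it was 2 higher and 7 lower.

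In treated against control 8 of the 114 rose and 16 fell, 21.1% of those tested beside 17.8% of all genes, with a median of -0.06. On library totals without TMM, with a shift of 0.21, the split was 15 higher and 9 lower, and that of all genes was 3021 and 819 in place of 1696 and 1535. Plpp2 was 2.25-fold higher, at 42.4 CPM in treated and 18.9 CPM in control livers (edgeR adjusted p = 0.000383), while Plpp1 and Plpp3 of the same family were lower. Abhd4, Pgs1, Srebf2, Cdipt and Dgkz were 1.91-, 1.94-, 1.72-, 1.51- and 1.28-fold higher. Etnppl was 2.96-fold lower, at 49.5 CPM in treated and 146 CPM in control livers, and Gnmt was 2.44-fold lower, at 467 CPM in treated and 1140 CPM in control livers. Chpt1, Sgms2, Agpat2 and Taz were 1.92-, 1.73-, 1.64- and 1.43-fold lower. Chpt1, Etnppl, Sgms2, Lpgat1, Gnmt, Bhmt2 and Sardh were called lower in treated livers against both other groups. Pcyt1a, Pcyt1b and Pcyt2 were called in no comparison, but Pcyt1b, at 0 to 0.543 CPM, was too low to be informative. The Taz call was lost on library totals without TMM (log2 fold change -0.30, adjusted p = 0.0627). The Dgkz call was lost without control replicate 1, control replicate 2 or treated replicate 3, with an adjusted p of 0.0800 to 0.101.

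**Figure D4:**
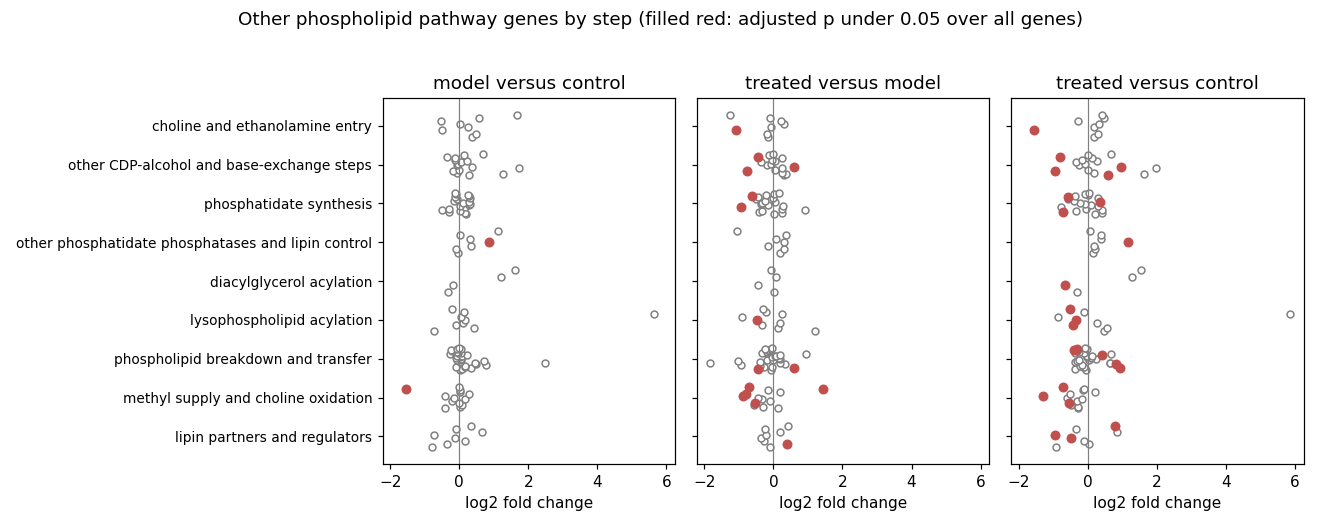
Log2 fold change (horizontal axis) of the 114 other listed genes tested, by step (rows, lipin partners and regulators included), in the 3 comparisons. Each point is a gene, and filled points had an edgeR adjusted p under 0.05 over all genes. Called genes number 2 in model against control, 15 in treated against model and 24 in treated against control; the open point at the far right is Mboat2, at 0 CPM in all control libraries, so that its plotted value depends on the fit and gives no fold.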

How the data were processed

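Polyadenylated RNA of 9 mouse liver libraries, 3 each labelled treated, model and control, was extracted with TRIzol and sequenced with Illumina libraries, per the labels' protocols. HISAT2 was the aligner, per the submitters' processing notes; for its version, and for the quantifier and its strand setting, the sources used here give nothing. Estimated counts, as whole numbers that need not be tallies of reads, and FPKM values, fragments scaled to length and library size, were both deposited for genes and for transcripts. The counts were tested as deposited with edgeR 4.0.16 (R 4.3.3; TMM; filterByExpr with a minimum count of 10 and a total of 15; robust quasi-likelihood F test) in 1 fit of the 9 libraries with 6 residual degrees of freedom, and p-values were adjusted by Benjamini-Hochberg over 18113 genes with a threshold of 0.05. Means are given ± SD with n = 3. The SE of a log2 fold change is its absolute value divided by the square root of the quasi-likelihood F statistic. The scripts were tested on simulated data.

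The 10 genes, the pathway list and the marker lists were chosen with earlier results of these data known. Of other pathway genes, those with the smallest p among the called, up to 6 per direction and comparison, are named; the genes most like the 2 members with the smallest p over the 3 groups are given, 3 each, among genes with at least 5 CPM in their highest group. A gene that these rules select is not reported here. Of 27945 gene IDs with a count, 27859 are in GENCODE M21 on GRCm38 and 25083 have the same start and end there, 7 of the 10 members included; exon sequences come from GENCODE M21 transcripts and promoters from RefSeq on GRCm38.p6, where 8 of the 10 members were matched. Counts of transcript forms depend on how reads were divided between transcripts. Alternatives were DESeq2 1.42.0, limma 3.58.1 (voom), DESeq2-type size factors, no filter, only the groups compared, a replicate block, each library left out and, chosen after seeing the data, library totals without TMM.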

Additional observations from a re-analysis of the deposited data

How the results depend on the processing

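Of 480 recomputed values of the 10 genes under 16 alternatives, 447 kept direction and call, 15 lost the call, 5 gained it and 13 changed sign. Chka in model against control and treated against model, Plpp1 in model against control and treated against control, Plpp3 in treated against control and Lpin2 in treated against model were called under all 16.

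Signs changed for Cept1, Chkb, Chka and Pcyt1a, in comparisons where none of them was called. Cept1 in model against control gave 0.0049 with DESeq2-type size factors, 0.0082 with DESeq2, 0.001 without a filter, 0.0376 without TMM, and -0.0889 to 0.1343 with single libraries left out. Without TMM, Pcyt1a in treated against model gave 0.0348 and Cept1 in treated against control 0.0166. Leaving out single libraries gave Chkb in treated against model -0.0494 to 0.0839, and Chka in treated against control -0.0837 to 0.253. Chkb in model against control was called by DESeq2 alone (adjusted p = 0.0267). The causes were not tested.

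Genes called numbered 868 (DESeq2) and 120 (replicate block) in model against control, where 202 was reported, and 2755 (DESeq2) in treated against model, where 1748 was reported. Leaving out single libraries gave 54 to 213 genes in model against control and 882 to 1660 in treated against model; 2 to 5 of the 10 genes in treated against control, where 5 was reported; and 1 to 2 and 3 to 13 other pathway genes in model against control and treated against model. With sums of transcript FPKM the share of Chka was 64.9%, 35.0% and 53.1% in treated, model and control livers, that of Plpp1 14.9% in control livers, and that of Lpin1 34.9% and 33.8% in treated and control livers. By estimated counts the Plpp1 upstream and downstream forms were 30.0% and 70.0% in treated livers. Of 384 recomputed values for the 24 named pathway results, 343 kept the call and 41 lost it; 13 of the 24 were called throughout, and Hnf4a in treated against model lost its call in 13 of 16.

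Replicate numbers do not pair libraries in the labels, and deviations of same-numbered libraries correlated at -0.0756 to 0.0716; the closest library had the same number in 5 of 18 cases. With the replicate number as a block 9 other pathway genes were called in treated against model, where 15 was reported, and Pemt lost its call in treated against control (adjusted p = 0.0759). Depth limits Plpp1 most, with 70 to 617 estimated counts per library.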
